A study of Mus musculus with 12 samples.

Results

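Eph receptors are receptor tyrosine kinases, and ephrins are the ligands that neighbouring cells carry on their surface. A-type ephrins are held in the membrane by a lipid anchor and B-type ephrins by a transmembrane stretch, and EphA and EphB receptors mostly bind the ligands of their own class. On contact the receptor signals into its own cell and the ephrin into its own, and much of the response is a change of the actin cytoskeleton. The known outcomes are repulsion, adhesion and boundaries between cells. In bone, EphB4 on osteoblasts and ephrin-B2 on osteoclasts are known to signal across the contact of these cells. The genes described here were chosen by symbol with earlier results of these arrays known, so their selection rests on the intensities of these same 12 arrays. They are 10: the receptors Epha2, Epha3, Epha4, Epha7, Ephb2, Ephb3 and Ephb4 and the ligands Efna5, Efnb1 and Efnb2. Of these, 9 had a probe, 19 probes in all among 45281 on the array, and Ephb2 is not analysed here because no probe of the annotation used carries its symbol. All levels and differences of these genes are therefore a description, and the probes of Epha7, which disagree, are given apart.

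The study measured RNA of OP9 cells, a mouse mesenchymal stromal cell line derived from newborn calvaria of the B6C3F1 op/op strain, on Illumina BeadChip arrays. All 4 groups come from this 1 line and share the op mutation of the gene for macrophage colony-stimulating factor. They are cells given vehicle and labelled 0 h, and cells given imatinib, a drug that blocks the kinases ABL and KIT and those of PDGF receptors, for 32 h, 64 h and 96 h, with 3 arrays each. The series title sets the work in drug resistance of BCR-ABL-positive leukemia mediated by such cells. The imatinib dose is not given in the sources used here. The time of the vehicle cells is in doubt, since the design text can also be read as vehicle given over the same hours. The labels do not say that the 3 arrays of a group came from separate cultures, so p-values measure the spread between these samples, which may be technical.

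Between 16162 and 17332 probes were detected per array (detection p under 0.05 against the array's own background). The median raw signal was 104 to 112. Arrays of a group correlated at r = 0.988 to 0.991 over kept probes. Imatinib 32 h replicate 3 and imatinib 64 h replicate 3 lay at opposite ends of the third principal component (7.07% of the variance). Vehicle and 96 h arrays carry one array label and 32 h and 64 h arrays another. The comparisons of 96 h with vehicle and of 64 h with 32 h therefore lie within a label. In the others label and time cannot be told apart. Of 11 mesenchymal stromal markers with a probe, 9 were kept and 8, among them Pdgfra, Prrx1, Vim and Col1a2, were detected on all 12 arrays. Thy1 was detected on none. The summed intensity of the 11 was 23295 with vehicle, 25553 at 32 h, 33709 at 64 h and 35832 at 96 h of imatinib. The rise of this sum lies in Cxcl12, at 12.19 log2 with vehicle, 13.34 at 32 h, 14.20 at 64 h and 14.37 at 96 h. The median log2 difference of the 9 kept genes from vehicle was -0.16 at 96 h. At 96 h against vehicle 1 of the 9 rose (Cxcl12, by 2.18) and 3 fell (Cd44, Vim and Eng, by 1.35, 0.87 and 0.66). Endothelial cells also express several of these genes, and their markers were near background. Cdh5 was detected on no array, and the summed intensity of the 12 genes stayed between 262 and 272 in all groups. The summed intensity of 7 haematopoietic markers was 214 with vehicle, 234 at 32 h, 313 at 64 h and 381 at 96 h of imatinib. Among them Ptprc was detected on no array. Lyz2 had a mean of 7.88 log2 at 96 h, against 5.94 log2 with vehicle, and was the 1 gene of 4 kept that passed at 96 h. Csf1r stood at 4.84 log2 at 96 h, against 5.10 log2 with vehicle, and Ms4a1 at 4.79 log2, against 4.94 log2. Adgre1 stood at 4.75 log2 at 96 h (detected on 2 arrays), against 4.51 log2 with vehicle (detected on 0). Of the 4 kept genes, 2 were thus higher and 2 lower at 96 h. Summed intensities of the other marker lists were 218 to 232 (epithelial), 314 to 339 (neural) and 306 to 343 (muscle) over the groups. Of 2 kept muscle genes Acta1 rose at each time. It stood at 4.88 log2 with vehicle (detected on 1 array), 6.15 at 32 h, 5.98 at 64 h and 6.15 at 96 h (all 3 arrays each). The part of these markers in the results below was not tested.

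Values are log2 intensities after background correction and quantile normalization and are compared only within a probe. A gene is said to have risen or fallen where limma's moderated test, run over all 18897 probes that passed a detection filter, gave a Benjamini-Hochberg adjusted p under 0.05. The filter kept 10 of the 19 probes, of 7 genes. In RNA from a whole culture, fewer cells of a type and less RNA per cell cannot be told apart. Among the genes other than Epha7, 9 were listed, 8 had a probe and 6 had a kept probe. At 96 h against vehicle 1 of these 6 rose (Efna5) and 1 fell (Epha2), beside 7.51% and 7.37% of all 10211 genes. At 64 h Efna5 rose and Epha2 fell, beside 6.33% and 6.08% of genes, and at 32 h they did so beside 2.09% and 2.08%. From 32 h to 64 h of imatinib 1 rose (Efna5) and 0 fell, beside 0.656% and 0.578%, and from 64 h to 96 h none passed, beside 0.118% and 0.137%. Set against vehicle, the 6 genes had a median log2 difference of 0.16 at 96 h, 0.32 at 64 h and 0.11 at 32 h. The median over all genes was 0.00 at each time. Of the 6, Epha3 passed the detection filter through imatinib arrays, and the others were detected on all 12 arrays by the probe that represents them. Since the genes were chosen with these results known, the counts support nothing about the family.

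The sequence before the transcription start is shown for the 3 members whose level moved most at 96 h, since these are the genes the results turn on. Each is the 250 bases that end at the start, 5′ to 3′ on the gene's own strand, from RefSeq on GRCm38.p6. Capitals mark matches, on either strand, to the motifs searched. The GC box was searched as GGGCGG in each window. The CCAAT box was searched by the letters of its name, and the cyclic AMP response element as TGACGTCA. Efna5 lies at chr17:62881318-62881567 on the minus strand. Epha2 lies at chr4:141300971-141301220 on the plus strand. Epha7, the first of 2 listed starts, lies at chr4:28812881-28813130 on the plus strand.
Efna5: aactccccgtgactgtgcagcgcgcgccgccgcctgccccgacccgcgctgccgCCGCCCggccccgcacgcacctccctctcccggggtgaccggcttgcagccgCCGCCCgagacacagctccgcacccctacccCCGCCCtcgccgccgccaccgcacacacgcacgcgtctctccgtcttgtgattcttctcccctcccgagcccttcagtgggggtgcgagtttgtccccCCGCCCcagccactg
Epha2: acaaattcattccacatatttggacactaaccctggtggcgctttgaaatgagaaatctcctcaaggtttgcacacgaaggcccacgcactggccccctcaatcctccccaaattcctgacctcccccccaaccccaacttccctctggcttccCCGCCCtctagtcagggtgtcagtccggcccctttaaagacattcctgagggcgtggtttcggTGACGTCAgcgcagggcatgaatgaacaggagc
Epha7: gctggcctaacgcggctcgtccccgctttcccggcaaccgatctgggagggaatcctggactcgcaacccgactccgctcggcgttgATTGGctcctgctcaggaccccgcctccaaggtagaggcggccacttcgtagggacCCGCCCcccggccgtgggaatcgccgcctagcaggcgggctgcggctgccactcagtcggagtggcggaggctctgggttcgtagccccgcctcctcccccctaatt
The windows differ in base composition, with 74.8% G and C in Efna5, 55.6% in Epha2 and 69.2% in Epha7, beside a median of 52.0% over 27025 promoter windows of the same length. The Efna5 window holds 4 GC boxes and those of Epha2 and Epha7 hold 1 each, a motif found in 32.9% of all windows. Epha7 also holds 1 CCAAT box, found in 34.5% of windows, and Epha2 holds 1 cyclic AMP response element, found in 1.62%, a motif searched only after that sequence had been seen. TATAAA (13% of windows) and the AP-1 site TGANTCA (6.87%) had no match in any of the 3 windows. A match describes letters in this window and is not a site of binding.

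Among the ligands, Efna5, which encodes ephrin-A5, a lipid-anchored ligand known for repulsive guidance of axons and for boundaries between cell groups, rose at each of the 3 times. Its brighter probe, ILMN_2757641, read 9.0, 8.96 and 8.92 log2 with vehicle, 9.66, 9.64 and 9.62 at 32 h, 10.35, 10.27 and 10.28 at 64 h, and 10.49, 10.48 and 10.39 at 96 h of imatinib. The 4 groups followed each other in time order and none overlapped its neighbour. Groups did not overlap for 33.3% of all genes at 96 h against vehicle, 32.3% at 64 h, 23.1% at 32 h, 17.1% between 64 h and 32 h and 16.7% between 96 h and 64 h. At 96 h the mean was 10.45 ± 0.06 log2, against 8.96 ± 0.04 log2 with vehicle (SD, n = 3 each), a difference of 1.49 ± 0.10 (SE) or 2.81-fold (adjusted p = 1.06e-07, limma). The difference from vehicle was 1.34 at 64 h (2.54-fold, adjusted p = 5.6e-07, limma) and 0.68 at 32 h (1.60-fold, adjusted p = 0.00145, limma). Imatinib 64 h lay 0.66 above imatinib 32 h (1.58-fold, adjusted p = 0.00445, limma). Without the 2 arrays that stand apart this difference was also 0.66, with an adjusted p of 0.0715 by limma. The step from 64 h to 96 h, 0.15 with a 95% interval of -0.07 to 0.37, did not pass.

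The dimmer Efna5 probe, ILMN_2662536, lay close to background and was detected on 1 vehicle array, 2 arrays each at 32 h and 64 h, and all 3 at 96 h. It read 4.91, 4.44 and 4.63 log2 with vehicle, 4.89, 4.66 and 4.99 at 32 h, 5.49, 4.59 and 5.27 at 64 h, and 5.89, 5.90 and 5.52 at 96 h. The 96 h arrays were the highest and did not overlap any other group, while the 64 h and 32 h arrays overlapped vehicle. At 96 h this probe rose by 1.11 ± 0.20 (SE; 2.16-fold, adjusted p = 0.00162, limma). That difference was 0.32 without background correction and 0.58 with an offset of 50, and passed under both. At 64 h its difference from vehicle was 0.46 (adjusted p = 0.176) and at 32 h 0.19 (adjusted p = 0.729). Without imatinib 64 h replicate 2 the 64 h difference was 0.72 (adjusted p = 0.0192, limma). Both probes thus rose at 96 h, and at the earlier times only the brighter one passed the test.

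The transmembrane ligands did not pass in any comparison. Efnb1, which encodes ephrin-B1, whose human gene is mutated in craniofrontonasal syndrome, was well above background. It read 9.14, 9.15 and 9.06 log2 with vehicle, 9.28, 9.31 and 8.96 at 32 h, 9.31, 8.94 and 9.46 at 64 h, and 9.30, 9.03 and 9.45 at 96 h. Its groups overlapped throughout, and the difference of 96 h from vehicle was 0.14, with a 95% interval of -0.19 to 0.48. Efnb2, which encodes ephrin-B2, the ligand of EphB4 in vessels and bone, read 5.53, 5.70 and 5.76 log2 with vehicle, 6.18, 6.23 and 5.81 at 32 h, 5.75, 6.45 and 5.92 at 64 h, and 5.63, 6.18 and 5.64 at 96 h. All 3 arrays at 32 h were above all vehicle arrays, but the difference of 0.41 did not pass (95% interval 0.0030 to 0.83, adjusted p = 0.308). The 96 h arrays overlapped vehicle with a difference of 0.16 (95% interval -0.25 to 0.57).

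**Figure D1:**
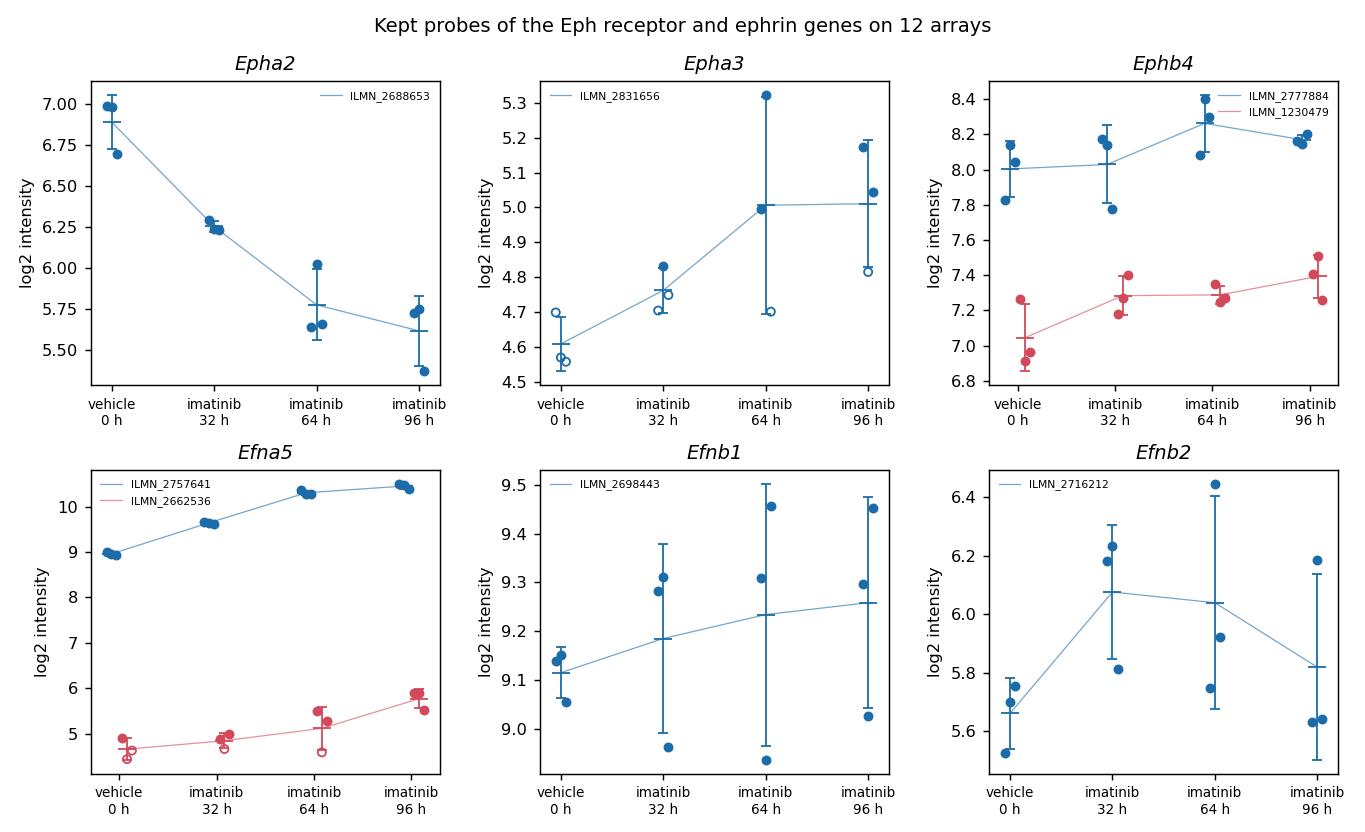
Normalized log2 intensity of the kept probes of the listed genes other than Epha7, 1 panel per gene with its own vertical range, on the 12 arrays in time order from vehicle 0 h to imatinib 96 h. Points are arrays (filled where detection p was under 0.05, open otherwise), and bars are the mean and SD of 3 arrays; the brighter Efna5 probe has means of 8.96, 9.64, 10.30 and 10.45 in this order, Epha2 of 6.89, 6.25, 5.77 and 5.62, and the Efnb1 points of all groups overlap.

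Among the receptors, Epha2, a receptor of A-type ephrins that is widely expressed in epithelial and tumour cells, fell at each time. Its single probe, ILMN_2688653, read 6.99, 6.98 and 6.70 log2 with vehicle, 6.29, 6.23 and 6.23 at 32 h, 5.64, 6.02 and 5.66 at 64 h, and 5.73, 5.75 and 5.37 at 96 h, and was detected on all 12 arrays. Every imatinib array was below every vehicle array, and the 64 h arrays were below the 32 h arrays, while 64 h and 96 h overlapped. At 96 h the mean was 5.62 ± 0.21 log2, against 6.89 ± 0.17 log2 with vehicle (SD, n = 3 each), a difference of -1.27 ± 0.15 (SE), that is 2.42-fold lower (adjusted p = 2.08e-05, limma). The difference from vehicle was -1.11 at 64 h (2.16-fold lower, adjusted p = 0.000113, limma) and -0.64 at 32 h (1.55-fold lower, adjusted p = 0.0227, limma). The call at 32 h was lost when any of 5 single arrays was left out, vehicle replicate 1 or 2 or any 32 h array, with differences of -0.66 to -0.59 and adjusted p-values of 0.0569 to 0.0962 by limma. It was also lost without the 2 arrays that stand apart (-0.63, adjusted p = 0.085, limma). Without background correction the 96 h difference was -0.54 and still passed. Between 64 h and 32 h the difference was -0.48 (adjusted p = 0.166) and between 96 h and 64 h -0.16 (adjusted p = 0.731), neither past the threshold.

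Ephb4, the receptor of ephrin-B2, was detected on all 12 arrays by both of its kept probes and passed in no comparison. Probe ILMN_2777884 read 7.83, 8.14 and 8.04 log2 with vehicle, 8.18, 8.14 and 7.77 at 32 h, 8.09, 8.40 and 8.30 at 64 h, and 8.16, 8.15 and 8.20 at 96 h. Probe ILMN_1230479 read 7.27, 6.91 and 6.96 log2 with vehicle, 7.18, 7.27 and 7.40 at 32 h, 7.35, 7.25 and 7.27 at 64 h, and 7.41, 7.51 and 7.26 at 96 h. The groups overlapped in every comparison except 96 h against vehicle for the first probe, whose 96 h arrays all lay just above the highest vehicle array. The difference of 96 h from vehicle was 0.17 for the first (95% interval -0.13 to 0.46) and 0.35 for the second (0.08 to 0.62, adjusted p = 0.0911), which passed without vehicle replicate 1 at 0.46 (adjusted p = 0.0415, limma). The remaining probe, ILMN_2973206, was detected on 2 arrays, both at 32 h, and was not kept.

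Epha3, an A-type receptor of mesenchymal and neural tissue, was measured by 5 probes, of which only ILMN_2831656 passed the filter, with detection on 0 vehicle arrays, 1 at 32 h, 2 at 64 h and 2 at 96 h. It read 4.70, 4.57 and 4.56 log2 with vehicle, 4.70, 4.83 and 4.75 at 32 h, 4.99, 5.32 and 4.70 at 64 h, and 5.17, 4.81 and 5.04 at 96 h. The detection filter kept this probe through imatinib arrays alone, so its adjusted p-values against vehicle are a description. The 96 h arrays were all above the vehicle arrays, and the test did not pass (adjusted p = 0.0988, limma). With vehicle signals raised to the lowest detected signal, the level was 1.14-fold higher at 96 h in the main normalization. In the same way it was 1.14-fold higher at 64 h, where the test did not pass (adjusted p = 0.108, limma). These folds are not a minimum over the alternatives, whose lowest log2 differences from vehicle were 0.11 at both times. The 64 h test passed without imatinib 64 h replicate 3, the lowest and undetected array of its group (adjusted p = 0.0325, limma). The other 4 Epha3 probes were detected on at most 1 array each, with group means of 4.31 to 4.70. Epha4, which binds ephrins of both classes, was detected on 1 array, imatinib 64 h replicate 2 at 5.34 log2, and Ephb3 on none, with group means between 4.31 and 4.49. For Epha4 and Ephb3 no difference was measurable at this signal.

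Epha7, an A-type receptor known from the development of the nervous system and a partner of ephrin-A5 there, was measured by 4 probes that did not run alike. Probe ILMN_2826671 read 5.38, 5.16 and 4.92 log2 with vehicle, 5.42, 5.44 and 5.29 at 32 h, 6.54, 6.55 and 6.62 at 64 h, and 6.65, 6.74 and 6.50 at 96 h, and was detected on all 12 arrays. The 64 h and 96 h arrays all lay above the vehicle and 32 h arrays, which overlapped each other. At 96 h the mean was 6.63 ± 0.12 log2, against 5.15 ± 0.23 log2 with vehicle (SD, n = 3 each), a difference of 1.48 ± 0.13 (SE) or 2.79-fold (adjusted p = 1.34e-06, limma). It was 0.54 without background correction and 0.93 with an offset of 50, and passed under both. At 64 h the probe rose by 1.42 (2.67-fold, adjusted p = 3.66e-06, limma), while at 32 h its difference of 0.23 did not pass (95% interval -0.05 to 0.51, adjusted p = 0.42). Imatinib 64 h lay 1.18 ± 0.13 (SE) above imatinib 32 h (2.27-fold, adjusted p = 0.000288, limma), within 1 array label, and 96 h differed from 64 h by 0.06 (95% interval -0.22 to 0.34).

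Probe ILMN_2554261 of the same gene read 4.28, 4.63 and 4.68 log2 with vehicle, 4.97, 5.15 and 5.0 at 32 h, 4.82, 5.01 and 5.25 at 64 h, and 4.93, 5.29 and 5.21 at 96 h. It was detected on no vehicle array and on all 9 imatinib arrays, and the imatinib groups overlapped each other. The probe thus passed the detection filter through imatinib arrays alone, so its adjusted p-values against vehicle are a description. With vehicle signals raised to the lowest detected signal, it was 1.25-fold higher at 96 h in the main normalization (adjusted p = 0.0131, limma). In the same way it was 1.15-fold higher at 64 h (adjusted p = 0.0457, limma) and 1.16-fold at 32 h. The adjusted p of 0.0849 at 32 h did not pass. These folds are not a minimum over the alternatives. Without background correction the log2 difference from vehicle was 0.19 at 96 h and 0.16 at 64 h. With an offset of 50 these were 0.28 and 0.22. The call at 96 h was lost without vehicle replicate 1 (adjusted p = 0.071), without imatinib 96 h replicate 2 (adjusted p = 0.0604) and without background correction (adjusted p = 0.0545), and that at 64 h without any 1 of most single arrays or without the 2 arrays that stand apart (adjusted p = 0.187). Imatinib 64 h differed from imatinib 32 h by -0.01 in this probe (95% interval -0.33 to 0.31), where the first probe rose by 1.18. ILMN_1228560 was detected on 1 array each at 64 h and 96 h and ILMN_2826669 on none, with group means of 4.36 to 4.64. Which transcripts the 4 probes target is not given in the sources used here.

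**Figure D2:**
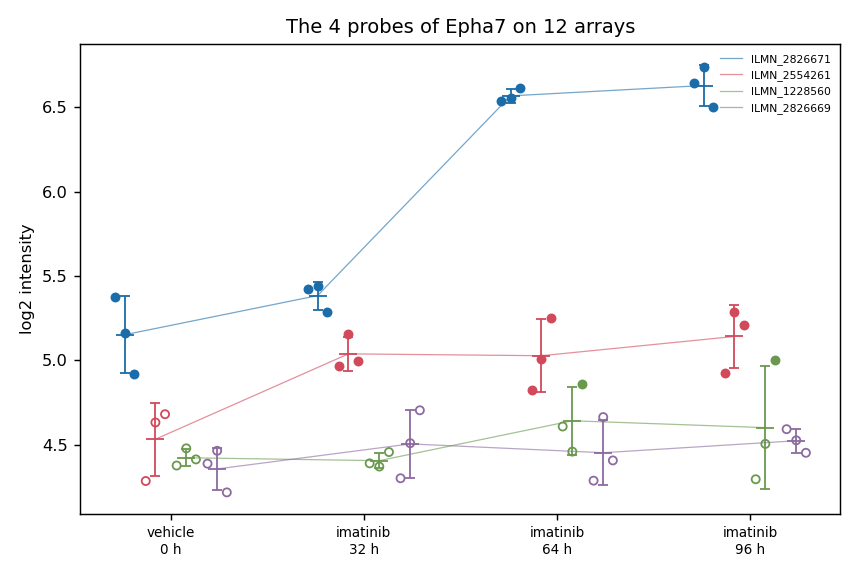
Normalized log2 intensity of the 4 Epha7 probes on each of the 12 arrays, in time order from vehicle 0 h to imatinib 96 h; filled points are arrays with a detection p under 0.05, open points are arrays without detection, bars are the mean and SD of 3 arrays, and lines join the means. ILMN_2826671 steps up between 32 h and 64 h, the imatinib points of ILMN_2554261 all lie above its vehicle points, and the other 2 stay near background.

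**Figure D3:**
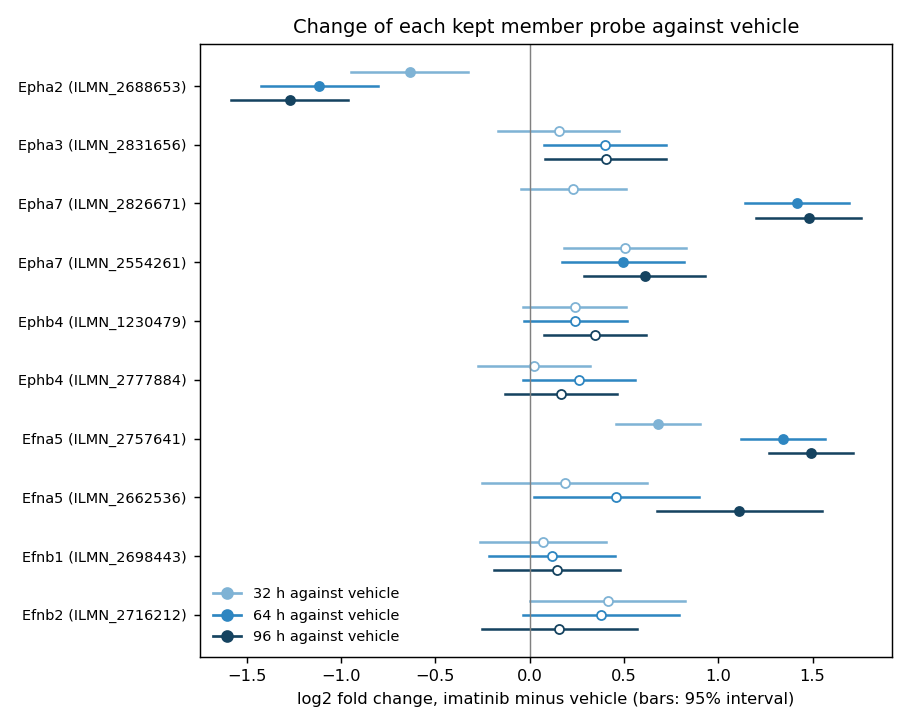
Log2 difference from vehicle, with its 95% interval as a bar, for each kept probe of the listed genes at 32 h, 64 h and 96 h of imatinib; filled points have an adjusted p under 0.05 and open points do not. At 96 h the filled points of Efna5 and Epha7 lie right of 0 and that of Epha2 left of it at -1.27, while the intervals of Efnb1 and of Ephb4 ILMN_2777884 include 0 at all 3 times.

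The rest of the family was low in these cells. All 12 other Eph and ephrin genes had a probe, 26 in all, and 6 probes of 5 genes (Efna1, Efna4, Efnb3, Epha1 and Epha8) were kept. Only the ligand Efna4 was detected on all 12 arrays, by both of its probes, with group means of 5.61 to 6.06 log2. None of the 6 probes passed in any comparison. Their differences ran from -0.45 to 0.44, the lowest adjusted p was 0.111 by limma, and 3 of 30 unadjusted p-values were under 0.05. The widest was Efna1, a known ligand of EphA2, at 4.70 ± 0.28 log2 at 96 h, against 5.16 ± 0.07 log2 with vehicle (SD, n = 3 each), a difference of -0.45. Epha5, Epha6, Epha10, Ephb1, Ephb6, Efna2 and Efna3 were detected on at most 1 array by any probe.

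Of 44 genes listed as signalling partners of the family (Src and Abl kinases, adaptors, exchange factors and GTPases, scaffold proteins and the ephrin-cleaving protease Adam10), 40 had a probe and 27 a kept one. At 96 h 1 of the 27 rose and 6 fell, at 64 h 1 rose and 7 fell, and at 32 h 0 rose and 3 fell, beside 7.51% and 7.37%, 6.33% and 6.08%, and 2.09% and 2.08% of all genes. Between imatinib times none passed by limma. Their median difference from vehicle was -0.05 at 96 h, 0.08 at 64 h and -0.02 at 32 h. Limk1, the kinase that inactivates cofilin and so slows actin turnover, fell at each time. It averaged 7.40 ± 0.14 log2 at 96 h, against 8.56 ± 0.12 log2 with vehicle (SD, n = 3 each), a difference of -1.16 ± 0.13 (SE; adjusted p = 1.81e-05, limma). Its difference from vehicle was -0.82 at 64 h (adjusted p = 0.000663) and -0.70 at 32 h (adjusted p = 0.00681). Ngef, which encodes ephexin, the exchange factor that EphA receptors bind, was detected on all 3 vehicle arrays and on no imatinib array. With imatinib signals raised to the lowest detected signal, Ngef was 1.28-fold lower at 96 h in the main normalization (adjusted p = 0.00107, limma). In the same way it was 1.31-fold lower at 64 h and 1.31-fold at 32 h. These folds are not a minimum over the alternatives. Without background correction the log2 difference from vehicle was -0.27 at 96 h, -0.16 at 64 h and -0.18 at 32 h. Only the 96 h difference passed there. Ngef passed the detection filter through vehicle arrays alone, so its adjusted p-values and its place in the counts are a description. Tiam1, an exchange factor for Rac1, fell by 0.83 at 96 h (adjusted p = 0.00229, limma) and by 0.58 at 64 h (adjusted p = 0.0287). Rac1 itself fell by 0.52 at 64 h (adjusted p = 0.0113, limma) and by 0.50 at 32 h (adjusted p = 0.033), with a difference of -0.23 at 96 h that did not pass (adjusted p = 0.262). The calls of Ngef and Rac1 at 32 h and of Ngef and Tiam1 at 64 h were each lost when any of several single arrays was left out and without the 2 arrays that stand apart (adjusted p = 0.0773 to 0.149). The call of Rac1 at 32 h was also lost with the replicate number as a block (-0.50, adjusted p = 0.0547, limma). The 1 gene that rose was Rgs3, whose PDZ form links B-type ephrins to G proteins. Its brightest probe rose by 1.00 ± 0.20 at 96 h (SE; adjusted p = 0.00262, limma) and by 0.85 at 64 h (adjusted p = 0.00974). Its other kept probes stood at -0.01 and -0.52 (adjusted p = 0.0806) at 96 h. Src (0.11, 95% interval -0.27 to 0.48) and Adam10 (0.16, -0.20 to 0.53) did not pass at 96 h, and no probe of the imatinib targets Abl1 and Abl2 or of Fyn passed the detection filter.

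**Figure D4:**
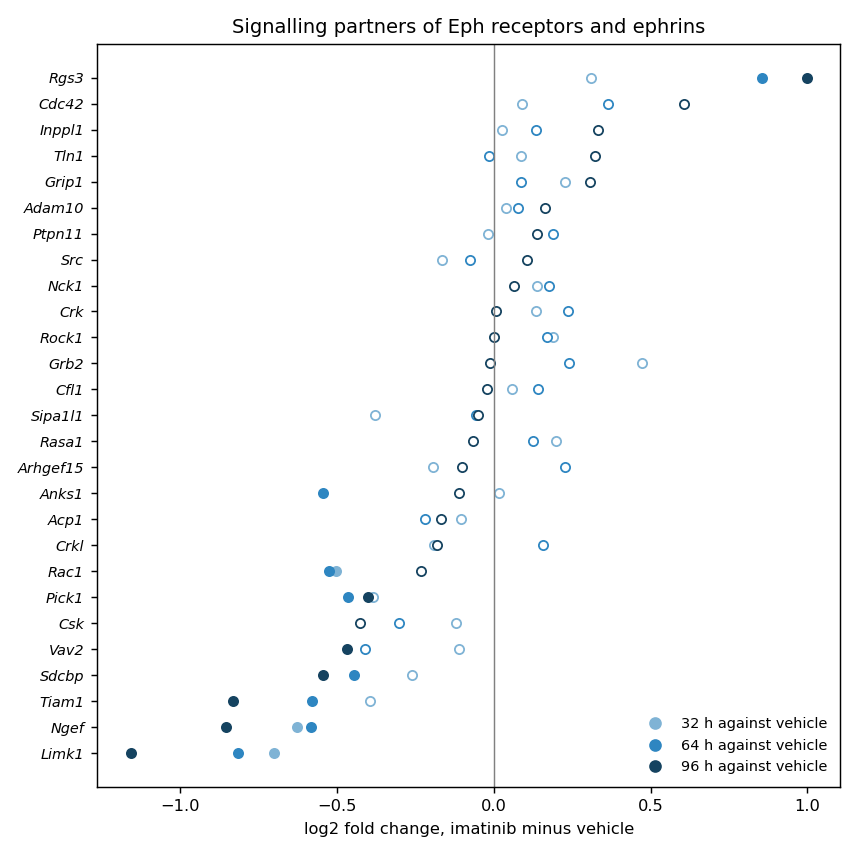
Log2 difference from vehicle of the 27 signalling partners with a kept probe (brightest kept probe) at 32 h, 64 h and 96 h of imatinib, ordered by the value at 96 h; filled points have an adjusted p under 0.05 and open points do not. Limk1 is filled and left of 0 at all 3 times, Rgs3 is filled and right of 0 at 64 h and 96 h, and most other points are open on both sides of 0.

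Genes whose 12 values ran most like those of a moved member were listed by the root mean square of the log2 difference after each gene's mean had been subtracted, over 9904 genes and with no test. For Efna5 these were Gas6 (0.102), Lpl (0.109) and Plscr4 (0.111), where Efna5's own SD over the 12 arrays was 0.62. For the brighter Epha7 probe they were Lyz2 (0.198), Cdc42ep3 (0.222) and Efna5 (0.226), and for Epha2 they were Fam102a (0.143), Mpp6 (0.155) and Pkn3 (0.163). The points share their arrays, groups and normalization.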

How the data were processed

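RNA of OP9 cells was measured on 12 arrays. The deposited table holds raw probe intensity and a detection p-value per array, per the file headers, and the authors' second table holds normalized values; limma is named in the submitters' processing notes, and the sources used here give neither its settings nor the array's genome build. The raw intensities were run through neqc of limma 3.58.1 (R 4.3.3), with the background taken from detection p-values and 16 as offset. The resulting quantile-normalized log2 values differed from the log2 of the deposited values by at most 0.0193. Probes with detection p under 0.05 on at least 3 of 12 arrays were kept, 18897 of 45281. Of all probes 34885 have 1 gene symbol in the platform annotation, 18 several and 10378 none; 15961 kept probes named 10211 genes, each represented by its brightest kept probe.

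A model of 4 group means over all 12 arrays (8 residual degrees of freedom) with eBayes gave 5 comparisons. Tests were two-sided, with Benjamini-Hochberg adjustment over all kept probes and a threshold of 0.05. The model was tested on simulated data with independent noise, which held no array labels and no technical replicates. With 3 arrays a group, the median SE of a log2 difference was 0.15. Where no array of a group detected a probe, the fold was taken against a raised signal for that group. Per array this was the higher of the lowest signal among detected probes and the probe's own signal. Such a fold holds for the main normalization and is not a minimum over the alternatives. The members and lists were chosen with earlier results of these data known. Named were all members and other family genes, of the partners up to 3 called in each direction and comparison plus Abl1, Abl2, Src, Fyn and Adam10, and the 3 genes closest in pattern to each moved member. Deviations of same-numbered arrays from their group means correlated at -0.02 to 0.03 over 15 pairs, which reuse the 12 arrays. No shared deviation by replicate number was thus seen. This cannot tell whether the numbers pair cultures by design. Alternatives changed the background correction, offset, normalization, filter, variance model, replicate block, source of the values, probe of a gene and arrays used. Promoters were read with Python 3.11.15 and pandas 2.3.3, and figures drawn with matplotlib 3.10.9.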

Additional observations from a re-analysis of the deposited data

Results flagged for a closer look

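The difference from vehicle was larger at 64 h than at 32 h of imatinib for 1 probe each of Epha7 and Efna5 in the comparison of imatinib 64 h with 32 h, whose groups carry the same array label. The genes were chosen with results of these arrays known, so the values and adjusted p-values are a description. Epha7 probe ILMN_2826671 lay 1.42 above vehicle at 64 h and 0.23 at 32 h. The difference between the times was 1.18 ± 0.13 (SE, log2, adjusted p = 0.000288, limma), with every 64 h array above every 32 h array. It was 0.45 without background correction and 0.77 with an offset of 50, and passed under both. The other kept Epha7 probe, ILMN_2554261, gave -0.01 in the same comparison. The brighter Efna5 probe lay 1.34 above vehicle at 64 h and 0.68 at 32 h. Its difference between the times was 0.66 ± 0.10 (SE, log2, adjusted p = 0.00445, limma), with every 64 h array above every 32 h array. That call was lost without the 2 arrays that stand apart (adjusted p = 0.0715, limma). The dimmer Efna5 probe, ILMN_2662536, gave 0.27 in the same comparison (adjusted p = 0.667, limma), and its groups overlapped. Between 64 h and 96 h no probe of the listed genes passed.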

How the results depend on the processing

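Of 24 alternatives, all but the mean of a gene's probes gave values per probe, at most 23 for each probe and comparison. Over these, 1081 of 1140 values of the listed probes kept their direction and their side of the threshold. Values that passed in neither fit, and fits without an array outside the comparison, are counted there. The rises of both Efna5 probes and of Epha7 ILMN_2826671 and the fall of Epha2 at 96 h passed under every alternative that was run, with highest adjusted p-values of 1.2e-05, 0.011, 6.9e-05 and 0.000225. The 96 h differences of Epha7 ILMN_2826671, the dim Efna5 probe and Epha2 shrank by over 1.5 times without background correction (0.54, 0.32 and -0.54), and the first 2 also with an offset of 50 (0.93 and 0.58). That of the brighter Efna5 probe stayed between 1.32 and 1.53. With the mean of a gene's probes in place of the brightest, 0 of the genes other than Epha7 rose at 32 h against vehicle and 0 at 64 h against 32 h, since the dim Efna5 probe enters. A fit without the third arrays of imatinib 32 h and 64 h, chosen after seeing the data, gave 2 that rose at 64 h (Efna5 and Epha3), 0 that fell at 32 h and 0 that rose at 64 h against 32 h. With each array left out in turn, 0 to 1 fell at 32 h and 1 to 2 rose at 64 h. The detection filter kept Epha3 through imatinib arrays alone, so its calls here are a description. Signs turned, always without a call, for Epha3 at 96 h against 64 h with offset 50 (-0.00144) and without the 2 arrays (-0.15), Epha7 ILMN_2554261 at 64 h against 32 h with median scaling (0.00912), Ephb4 ILMN_2777884 at 32 h with each array label normalized apart (-0.018) and Efnb1 at 64 h against 32 h without the 2 arrays (-0.17). Leaving out single arrays gave -0.062 to 0.15 for Ephb4 ILMN_2777884 at 32 h and -0.025 to 0.25 for Efnb2 at 96 h, both against vehicle. At 64 h against 32 h it gave -0.063 to 0.20 for Efnb1, -0.24 to 0.11 for Efnb2, -0.12 to 0.092 for Epha7 ILMN_2554261 and -0.048 to 0.062 for Ephb4 ILMN_1230479. At 96 h against 64 h it gave -0.12 to 0.14 for Efnb1 and -0.15 to 0.16 for Epha3. With the replicate block 1 rose and 1 fell at 96 h, as without it. The call that changed among listed probes was Epha7 ILMN_2554261 at 32 h, which passed (adjusted p = 0.0436, limma), and among named partners Rac1 at 32 h, which did not (adjusted p = 0.0547, limma). Epha7 ILMN_2554261 passed under 19 of 22 alternatives at 96 h and 5 of 22 at 64 h against vehicle, and Ephb4 ILMN_1230479 passed at 96 h with no background correction (0.20, adjusted p = 0.0473, limma). The strict filter dropped Epha3 ILMN_2831656 and Epha7 ILMN_2554261. Over all probes, 345 rose and 357 fell at 32 h (210 to 558 and 194 to 583 over the alternatives), 99 and 92 at 64 h against 32 h (20 to 245 and 23 to 219), 25 and 27 at 96 h against 64 h (3 to 123 and 6 to 105), and 1128 fell at 64 h (745 to 1452). At 96 h the differences of Rgs3, Ngef and Tiam1 were 0.38, -0.27 and -0.31 without background correction, and passed. Partner counts ranged from 1 to 3 that rose and 3 to 7 that fell at 96 h, 0 to 2 and 3 to 8 at 64 h, and 0 and 1 to 3 at 32 h. The causes were not tested. Signal near background limits Epha3, Epha4, Ephb3, the dim probes of Efna5 and Epha7, and Ngef, and also Epha7 ILMN_2826671 with vehicle and at 32 h. The sizes of the 96 h differences of Epha2, Rgs3 and Tiam1 also hang on the background setting. They were 2.3, 2.6 and 2.7 times smaller without the correction.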
